A study of Mus musculus with 8 samples.

Results

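Interferon-responsive microglia are the cells of this report: microglia that carried transcripts of several interferon-stimulated genes together. A sequenced cell was kept when its barcode had at least 1000 unique molecular identifiers (UMIs, each 1 captured RNA molecule), at least 500 genes and at most 10% mitochondrial UMIs. A kept cell was a member when it had at least 1 UMI in 4 or more of 11 genes, which were Ifit1, Ifit2, Ifit3, Ifit3b, Rsad2, Mx1, Isg15, Slfn5, Zbp1, Oasl2 and Usp18 and are called the rule genes here. Of 14626 kept cells, 2236 (15.3%) were members, 10573 had UMIs in at most 1 rule gene and serve as the comparison cells, and 1817 lay between with 2 or 3. Since the UMIs of the rule genes chose the members, their levels are given as a description and were not tested.

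Microglia, the macrophages that reside in the brain and spinal cord, were sorted for YFP from the lumbar spinal cord of young adult C57BL/6 mice and sequenced with 10x Genomics 3′ chemistry. The 4 control libraries were from Cx3cr1-yfp-creER/+ animals and the 4 A20 cKO libraries from Cx3cr1-yfp-creER/+; Tnfaip3 fl/fl animals, in each case naive or 1, 2 or 3 days after bilateral sciatic nerve transection. All animals carried YFP and a tamoxifen-inducible Cre at 1 Cx3cr1 allele, and per the methods tamoxifen was given for 5 days and the experiments were done 7 days after the first dose, so the floxed Tnfaip3 alleles, which encode the NF-kB inhibitor A20, could recombine in any cell that expresses Cx3cr1, monocytes included. Each library was a pool of 3 animals and each group was 1 library, so differences between libraries have no replicate check and their intervals cover counting error only.

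Type I interferons bind a receptor pair, Ifnar1 and Ifnar2, whose kinases Jak1 and Tyk2 phosphorylate STAT proteins, Stat2 among them. With Irf9 these form a complex that binds the interferon-stimulated response element in promoters and turns on a large set of antiviral genes, among them Irf7, which in turn raises interferon production. In the brain and spinal cord, microglia with this signature are known from infection, ageing, injury and degeneration, and usually form a minority of the microglia.

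Pooled over pairs, the libraries fell into sets that share barcodes to a different extent. The linked libraries, as they are called here, were the 4 of A20 cKO and that of control day 3. Among them, 117 barcodes of kept cells occurred in both libraries of a pair, or 6.40 per 1000000 cell pairs, against 1.69 in the other 18 pairs of libraries. The rate was uneven within both sets. A20 cKO day 1 and day 2 (886 and 667 kept cells) shared 23, and control day 3 and A20 cKO naive (2117 and 2922) shared 16. Outside the linked libraries, control naive and A20 cKO day 1 (568 and 886) shared 3, a higher rate than the latter pair. Barcodes alone thus did not set each linked pair apart. Summed neutrophil marker RNA in comparison cells was also higher in the linked libraries (35.8 to 77.1 UMIs per 1000000, CPM) than in control naive, day 1 and day 2 (1.04 to 11.8 CPM). Of the 2236 members, 62 carried a barcode found in another library as well, as did 349 of all 14626 kept cells. Among linked pairs 8 barcodes were members in both libraries. A20 cKO day 1 had the largest share of members with a shared barcode (10.4%, against 5.22% of its comparison cells). In A20 cKO day 2 the shares were 2.43% of members and 17.2% of comparison cells. On day 3 alone both genotypes were linked libraries, and on the other days genotype and the split of libraries cannot be told apart. Libraries held 1648400 to 15817426 UMIs and the median kept cell had 2780 to 4274.

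Members were few in control naive, day 1 and day 2 and common in the linked libraries. In control naive 8 of 568 kept cells were members (1.41%, 95% Clopper-Pearson interval 0.610 to 2.76), in control day 1 23 of 3323 (0.692%, 0.439 to 1.04) and in control day 2 43 of 3585 (1.20%, 0.869 to 1.61). Control day 3 had 605 members in 2117 cells (28.6%, 26.7 to 30.6). In A20 cKO naive they made up 606 of 2922 cells (20.7%, 19.3 to 22.3), on day 1 241 of 886 (27.2%, 24.3 to 30.3), on day 2 370 of 667 (55.5%, 51.6 to 59.3) and on day 3 340 of 558 (60.9%, 56.7 to 65.0). Thus 2162 of the 2236 members (96.7%) came from the linked libraries.

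**Figure D1:**
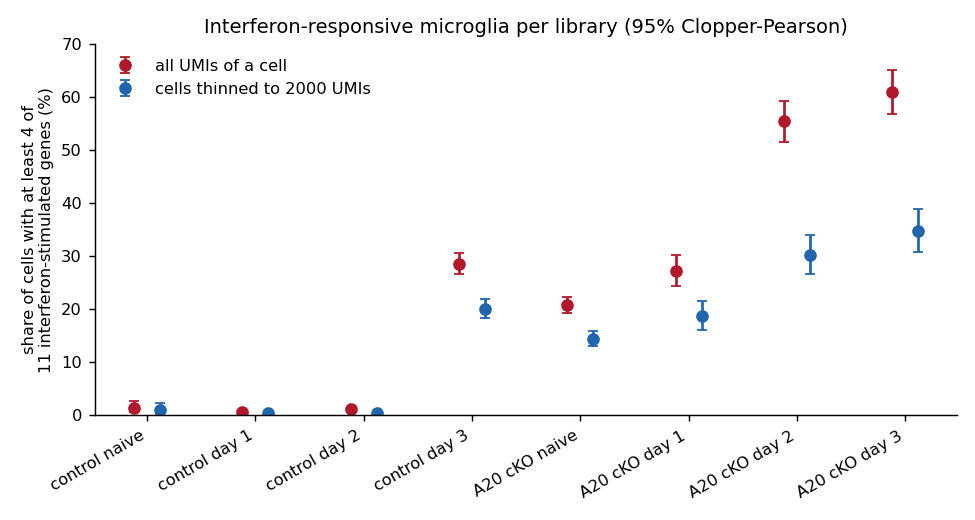
Share of kept cells that had UMIs in at least 4 of the 11 rule genes (vertical axis, percent) in each of the 8 libraries (horizontal axis), with all UMIs of a cell in red and after thinning each cell to 2000 UMIs in blue; points are the shares and bars 95% Clopper-Pearson intervals. Control naive, day 1 and day 2 lie at 0.692% to 1.41%, and the linked libraries at 20.7% to 60.9% before and 14.4% to 34.8% after thinning.

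Within the linked libraries the share rose with time in A20 cKO, by 6.46 percentage points from naive to day 1 (Newcombe 95% interval 3.26 to 9.81) and by 34.7 points from naive to day 2 (30.7 to 38.7). Day 3 was 5.46 points above day 2, with an interval from -0.0902 to 10.9 that includes 0; when 5 rule genes were required the difference was 7.54 points (1.93 to 13.1). On day 3 the A20 cKO share was 32.4 points above the control share (27.8 to 36.7), and A20 cKO naive minus control day 3 was -7.84 points (-10.3 to -5.43). Control day 1 and day 2 differed from control naive by -0.716 and -0.209 points, and both intervals include 0 (-2.08 to 0.0576 and -1.59 to 0.597).

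Depth moved with membership, and its part in the shares was not tested apart from thinning. Members had a higher median of UMIs than comparison cells in all 8 libraries, for example 4045 against 2774 in control day 3 and 4868 against 3214.5 in A20 cKO day 2. After each cell was thinned to 2000 UMIs, with 935 shallower cells left out, 1321 of 13691 cells were members. The thinned shares were 0.996%, 0.465% and 0.431% in control naive, day 1 and day 2, 20.1% in control day 3, and 14.4%, 18.7%, 30.2% and 34.8% in A20 cKO naive and days 1, 2 and 3. The day 3 difference between the genotypes was then 14.6 points (10.3 to 19.1), and the rise from A20 cKO naive to day 2 was 15.8 points.

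The rule cuts a range, with no gap at its edge. In the 8 libraries together 702 cells had exactly 3 rule genes, just outside the rule, and 478 exactly 4, just inside, while 1355 had at least 6 and 152 all 11. The median member had 6 rule genes in the linked libraries and in control day 2, 7 in control day 1 and 4 in control naive. Members held 81.4% to 91.4% of all rule gene UMIs in the linked libraries and 29.7% to 42.3% in control naive, day 1 and day 2.

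Among the rule genes, Oasl2, a relative of the oligoadenylate synthetases, was the most widely detected, with a UMI in 85.6% of members and 4.91% of comparison cells. It was followed by Ifit3 (81.8% and 4.86%), which with Ifit1, Ifit2 and Ifit3b binds foreign RNA and lies in 1 cluster on chromosome 19, from 34550694 at the start of Ifit2 to 34650009 at the end of Ifit1 (GRCm38, GENCODE M21). Isg15, a ubiquitin-like modifier, had a UMI in 76.3% of members, Ifit2 in 68.4%, Zbp1, a sensor of unusual nucleic acids, in 61.5%, and Usp18, which removes ISG15 and dampens receptor signalling, in 58.3%. Slfn5, Ifit3b, Ifit1, Mx1 and Rsad2 were found in 37.5% to 53.7% of members, and each of the 5 in 1.07% to 1.31% of comparison cells. Ifit3 and Ifit3b are near-identical copies, so the split of reads between them is uncertain, but leaving Ifit3b out of the list kept every library's share within its interval.

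As a level, Isg15 was the steadiest rule gene, with 474 to 699 CPM in the members of the 8 libraries and 12.7 to 32.4 CPM in the comparison cells. Ifit2 ranged more widely, from 129 to 591 CPM in members. Comparison cells differed between libraries although all had at most 1 rule gene: the 11 genes together came to 46.7 to 71.7 CPM in control naive, day 1 and day 2 and to 152 to 269 CPM in the linked libraries. In comparison cells of A20 cKO day 3, 25.3% had a UMI of Oasl2, against 2.00% in the lowest library. Free RNA could not be measured well, since only 35 kept cells, all in linked libraries and with medians of 1108 to 1551 UMIs, had UMIs in at most 1 of 7 microglia markers, and 2 of them met the rule.

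Members carried microglia markers in every library. Tmem119 was found in 98.9% of members and 99.3% of comparison cells, and Csf1r in 98.4% and 98.7%. P2ry12 was found in 94.7% of members and 98.7% of comparison cells, and Gpr34 in 72.6% and 93.1%. These shares pool cells over libraries that hold the classes in unlike proportions, so they mix library with class. By library P2ry12 was found in 88.8% to 100% of members and 74.1% to 100% of comparison cells. Gpr34 was found in 61.1% to 93.0% and 60.3% to 98.0%. The 7 microglia markers summed to 11251 to 20591 CPM in members. Markers of T or NK cells summed to at most 1.17 CPM in members, with Cd3e, Cd3g, Cd8a, Ncr1 and Gzma at 0 UMIs in all members, and border macrophage markers to at most 11.6 CPM, with Cd163 and Lyve1 at 0. Monocyte markers summed to 0 to 138 CPM in members and 3.19 to 58.3 CPM in comparison cells. Plac8 gave 716 UMIs of these in members, Itgal 92, Fn1 67, Vcan 23, Ccr2 21 and F10 0. Oligodendrocyte markers lay at 145 to 318 CPM and astrocyte markers at 135 to 372 CPM in members, against 138 to 283 and 111 to 410 in comparison cells, and their part in the results was not tested.

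The 6 promoters below, of 3 rule genes and 3 genes named for their difference, were chosen because they hold a match to the motif in the bases printed, and are shown because the interferon-stimulated response element is the site that the complex of STAT2 and IRF9 binds. The 120 bases before the start of each gene are printed from RefSeq on GRCm38.p6, 5′ to 3′ on the strand of the gene, with matches to GAAANNGAAA on either strand in capitals.
Ifit1, chr19:34640769-34640888, plus strand: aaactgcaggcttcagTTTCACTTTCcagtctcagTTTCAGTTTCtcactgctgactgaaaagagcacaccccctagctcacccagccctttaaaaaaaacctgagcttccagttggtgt
Isg15, chr4:156200819-156200938, minus strand: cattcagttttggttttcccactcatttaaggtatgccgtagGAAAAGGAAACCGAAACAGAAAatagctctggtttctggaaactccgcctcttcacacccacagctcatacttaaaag
Rsad2, chr12:26456453-26456572, minus strand: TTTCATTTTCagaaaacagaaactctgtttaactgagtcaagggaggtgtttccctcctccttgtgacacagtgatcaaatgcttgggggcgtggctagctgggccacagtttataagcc
Oas1g, chr5:120887614-120887733, minus strand: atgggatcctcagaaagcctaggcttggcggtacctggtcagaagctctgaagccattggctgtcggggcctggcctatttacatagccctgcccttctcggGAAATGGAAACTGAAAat
Tgtp2, chr11:49064213-49064332, minus strand: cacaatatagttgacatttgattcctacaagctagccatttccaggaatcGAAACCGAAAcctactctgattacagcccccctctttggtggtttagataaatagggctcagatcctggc
Phf11a, chr14:59297523-59297642, minus strand: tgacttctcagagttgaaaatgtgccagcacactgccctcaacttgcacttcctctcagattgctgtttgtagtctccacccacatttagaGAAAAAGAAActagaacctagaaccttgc
The match was present 3 times, overlapping, before Isg15, where the run of capitals joins them, and 2 times before Ifit1 and before Oas1g.

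Over the RefSeq windows of 250 bases before to 50 after each start, 3.44% of all 32851 windows held GAAANNGAAA. Of the 8 rule genes with a window, 6 held it, with Ifit2 and Oasl2 without a match. Of the 9 genes with a window that were named for the largest positive differences, 4 held it, and Oasl1, Il12b, Cmpk2, Ms4a4c and Isg20 did not. Within the 120 bases printed, Ifit3, Ifit3b, Slfn5 and Cxcl10 had no match either. Among the genes tested outside the rule 3.90% of 7413 genes with a window held it, among those called higher in members 12.8% (73 of 572) and among those called lower 3.15% (16 of 508). For TTCNNNGAA, a STAT site, the shares were 8.23%, 8.92% and 7.48%. Matches are a description of these windows, and the shares were not tested.

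To compare members with comparison cells beyond the rule genes, UMIs were summed per library and class, and the sums were fitted with edgeR with the library as a block. The fit used the 7 libraries with at least 20 members, leaving out control naive. Of 9608 genes outside the rule that passed the filter on low counts, 783 (8.15%) were higher and 673 (7%) lower in members at an adjusted p of 0.05 or less, and DESeq2 called 668 and 321. The log2 difference exceeded 1 for 261 genes called higher and was under -1 for 50 genes called lower, and the median over all genes was -0.05. Within the linked libraries alone, 730 of the 782 genes called higher and tested there too were called in the same direction, and 505 of 669 called lower. Membership also goes with depth, so the fit was repeated on cells between 3000 and 6000 UMIs, where 424 (5.08%) of 8349 genes were higher and 236 (2.83%) lower, and on classes chosen and summed from thinned counts, where 521 (7.47%) of 6976 genes were higher and 262 (3.76%) lower. In both repeats 373 genes were again called higher and 132 lower. Leaving out every shared barcode gave 787 and 658 calls.

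The 15 genes named for the largest positive differences were chosen among called genes with at least 20 CPM in the mean of both classes and 1 direction in every library. Mnda, of the IFI200 family of nucleic acid sensors on chromosome 1, led them at 4.46 log2 (adjusted p 9.16e-11, SD over libraries 2.23, higher in 7 of 7 libraries). In members it stood at 104 and 61.7 CPM in control day 1 and day 2, at 166 CPM in control day 3 and at 287 to 307 CPM in the 4 A20 cKO libraries. Its comparison cells had 0.222 to 19.3 CPM in the libraries from control day 1 to A20 cKO day 1, and 52.3 and 51.8 CPM in A20 cKO day 2 and day 3, so the member and comparison values of the 7 libraries did not overlap. Its neighbours Pydc3 and Pydc4 followed at 4.37 and 3.19 log2 (edgeR adjusted p 6.36e-13 and 6.11e-10).

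Cxcl10, a chemokine that draws T and NK cells, was 4.31 log2 higher (edgeR adjusted p 5.69e-13, SD 0.969, 7 of 7 libraries). Members held 185, 308 and 382 CPM in control days 1, 2 and 3 and 832, 955, 725 and 604 CPM in A20 cKO naive and days 1, 2 and 3. Comparison cells held 8.89, 9.69 and 24.4 CPM in the control libraries and 26.3, 36.3, 68.8 and 117 CPM in A20 cKO. The lowest member value was above the highest comparison value, which was also so for Mnda, Cmpk2 and Isg20 among the 15 genes named for the largest positive differences, where the other 11 overlapped across libraries. These 15 genes were chosen for size, and the share of all tested genes without overlap is not given here, so the count is a description only.

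The other genes of that group covered several arms of the response. The GTPases Iigp1, Tgtp2 and Gbp4, which act on membranes around pathogens, were 4.19, 3.48 and 3.26 log2 higher. Oasl1 and Oas1g, of the oligoadenylate synthetase family that senses double-stranded RNA, were 3.93 and 3.09 log2 higher, Cmpk2, a nucleotide kinase whose gene neighbours Rsad2, 3.39, and Isg20, an exonuclease, 2.96. Cd69, an activation receptor, and Ms4a4c, a membrane protein, were 3.38 and 3.08 log2 higher, and Phf11a 3.19. With 0.5 UMIs added to each sum, each of these was higher in 7 of 7 libraries, although members had no UMI of Oas1g in control day 1 and day 2 and none of Tgtp2 in control day 1, where the added value sets the sign. By edgeR their adjusted p ran from 4.68e-08 (Gbp4) to 1.63e-13 (Iigp1), and each was called in both depth repeats.

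Il12b, an interleukin subunit, was 3.63 log2 higher by edgeR (adjusted p 7.07e-12) and was found mainly in A20 cKO. Members had 54.9, 105, 210.5 and 77.2 CPM in A20 cKO naive and days 1, 2 and 3, against 8.03, 0 and 0.383 CPM in control days 1, 2 and 3. Comparison cells of A20 cKO had 4.44 to 16.5 CPM, and in control day 2 the added 0.5 UMIs set the sign. It did not pass the filter in either depth repeat.

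**Figure D2:**
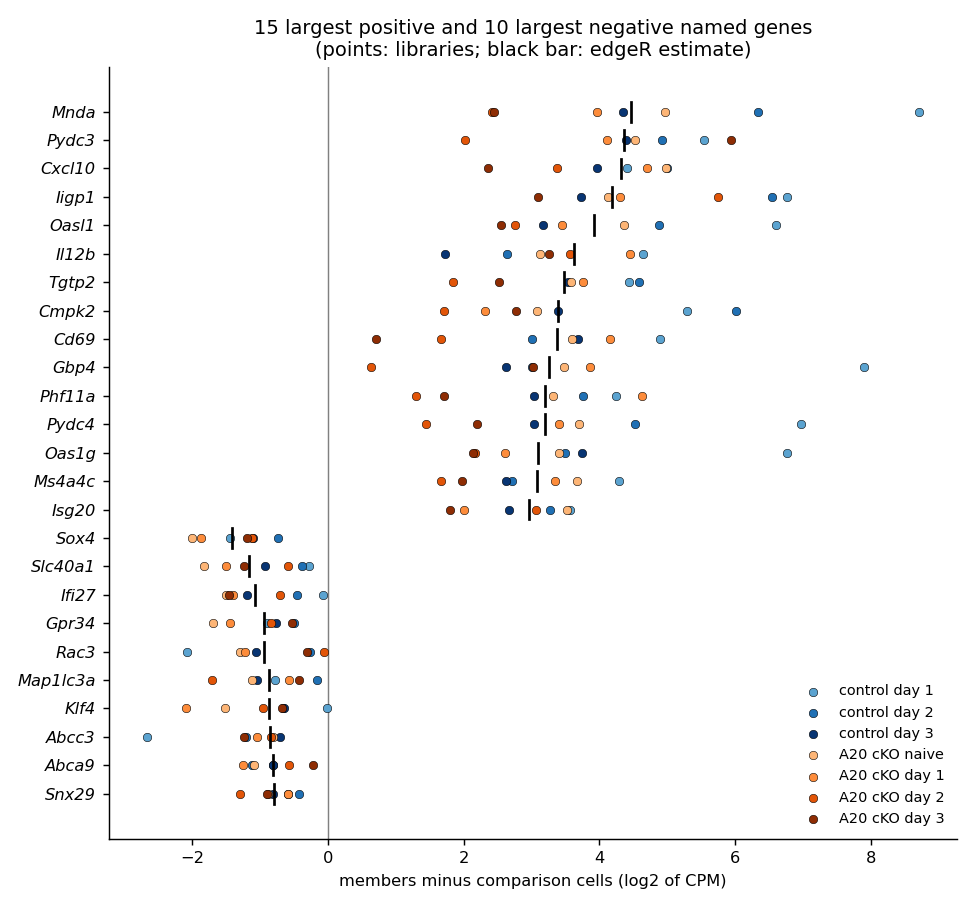
Difference between members and comparison cells (horizontal axis, log2 of CPM with 0.5 UMIs added) for the 15 largest positive and 10 largest negative genes by the naming rule (vertical axis), with 1 point per library and the edgeR estimate as a black bar. With the added 0.5 UMIs all points of the positive genes lie right of 0 and all points of the negative genes left of it, with Mnda at 4.46 and Sox4 at -1.42.

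The largest negative differences were smaller. Sox4, a transcription factor, fell by 1.42 log2 (edgeR adjusted p 1.56e-08, SD 0.453), with 64.3, 65.5 and 73.6 CPM in members of control days 1, 2 and 3 against 186, 113 and 158 CPM in comparison cells. In A20 cKO naive and days 1, 2 and 3 its members had 55.7, 25.4, 19.4 and 28.7 CPM against 225, 94.8, 41.3 and 64.8 CPM, so it was lower in members of all 7 libraries while the 2 classes overlapped between libraries. Slc40a1, the iron exporter, fell by 1.17 log2, and Gpr34, a lysophospholipid receptor of microglia, by 0.95 log2 (adjusted p 2.06e-06 and 1.44e-06 by edgeR). Rac3, a small GTPase, Map1lc3a, an autophagy protein, Klf4, a transcription factor, the transporters Abcc3 and Abca9, and the sorting nexin Snx29 fell by 0.79 to 0.95 log2, and of these Abcc3 was not called in either depth repeat (adjusted p 0.0608 and 0.0972 by edgeR) and Rac3 was not tested on thinned counts.

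The ligands themselves were hardly seen. Of 10 interferon genes none passed the filter, Ifnb1, the interferon beta gene, had 39 UMIs in all members and 2 in all comparison cells, and Ifna1, Ifna4 and Ifna5 had 0 in both. Ifnb1 in members was 0 in control naive, day 1 and day 2, 0.767 CPM in control day 3 and 3.30, 3.91, 7.66 and 5.85 CPM in A20 cKO naive and days 1, 2 and 3.

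Receptor chains of type I interferon were not called, while the transcription factors downstream of them were higher. Of 10 genes of receptors and JAK-STAT signalling, 3 were called higher, 1 lower and 6 were not called. Ifnar1 and Ifnar2, the type I receptor chains, had log2 differences of 0.04 and 0.02 (edgeR adjusted p 0.831 and 0.905), with Ifnar2 at 162 to 239 CPM in members and 183 to 245 CPM in comparison cells. Stat2 was 2.30 log2 higher (adjusted p 1.28e-11) and Irf9 0.29 (0.0375) by edgeR, and Irf9 was not called on thinned counts (adjusted p 0.193). Ifngr1, a chain of the interferon gamma receptor, fell by 0.52 log2 (adjusted p 0.000129, lower in 7 of 7 libraries).

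Among the sensors of nucleic acids, 6 of 10 tested genes were called higher and none lower. These were the RNA sensors Ifih1 (2.18 log2), Dhx58 (1.94), Ddx58 (1.67) and Tlr3 (1.43), the ligase Trim25 (1.42) that acts with Ddx58, and Mb21d1 (0.64), the DNA sensor cGAS. The adaptors Mavs, Tmem173 and Myd88 and the receptor Tlr7 were not called, with log2 differences of -0.07 to 0.29.

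Interferon regulatory factors split in the same manner. Irf7 was 2.63 log2 higher (edgeR adjusted p 2.07e-08), at 216 to 738 CPM in members against 11.6 to 275 CPM in comparison cells, and Irf1 0.82 log2 higher (1.24e-06). Irf2, Irf3, Irf5 and Irf8 were not called, with log2 differences of -0.17 to 0.09, and Irf8, a microglial lineage factor, had medians of 711 and 713 CPM.

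Regulators that restrain the response were also higher, 4 of 6 tested. Socs1, an inhibitor of JAK kinases, was 2.22 log2 higher, Samhd1, a nucleotide hydrolase, 1.27, and Adar, which edits double-stranded RNA, 0.96. Socs3 was 0.44 log2 higher (edgeR adjusted p 0.0229) but was not called between 3000 and 6000 UMIs (adjusted p 0.208). Tnfaip3, the floxed gene, was 0.77 log2 higher in members (edgeR adjusted p 0.00468, higher in 6 of 7 libraries). Its level was 40.2, 7.71 and 16.9 CPM in members of control days 1, 2 and 3 and 71.4, 69.4, 55.7 and 75.4 CPM in A20 cKO naive and days 1, 2 and 3, thus higher in the members labelled A20 cKO. Which part of the gene is deleted was not given in the sources used here. UMIs at its 3′ end do not check the deletion where that end remains.

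Antiviral effectors outside the rule moved nearly as 1 group. Of 44 tested genes 43 were called higher and 1 lower, with a median log2 difference of 1.77 against -0.05 over all genes tested. Ifitm3, which blocks viral entry, had 490 to 2096 CPM in members and 49.9 to 1104 CPM in comparison cells (2.27 log2), and Bst2, which tethers virus particles to the cell, 747 to 1350 CPM against 188 to 803 CPM (1.55 log2). Ifi47, a GTPase with little RNA in comparison cells (0.412 to 3.48 CPM), had the largest difference of the list at 4.79 log2, and Ifi27l2a and Lgals3bp were 1.52 and 0.98 log2 higher. The 1 gene called lower was Ifi27, which fell by 1.08 log2 (edgeR adjusted p 9.28e-07), at 128.5, 116 and 49.1 CPM in members of control days 1, 2 and 3 against 140, 162 and 112 CPM in comparison cells. In the repeat between 3000 and 6000 UMIs 41 of 42 were called higher, and in that on thinned counts 41 of 42 as well.

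Below the edge of the rule too, cells with more rule genes held more of these effectors, with 1 exception in the top bin of control day 1 (7601 after 7846 CPM). In control day 3 the 44 genes summed to 3022 CPM in comparison cells, 4278 CPM in cells with 2 or 3 rule genes, 6987 with 4 or 5, 9425 with 6 to 8 and 13584 with 9 to 11. A20 cKO naive ran from 2995 to 17240 CPM over the same bins. Comparison cells of A20 cKO day 2 and day 3 already held 6448 and 6225 CPM, above the 1571 to 2079 CPM of control naive, day 1 and day 2 and the 2995 to 3022 CPM of the other linked libraries. The 10 receptor and JAK-STAT genes lay between 1395 and 2842 CPM in all bins. These bins also differ in depth, with medians of 2774 UMIs in the lowest and 4579 in the highest bin of control day 3.

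**Figure D3:**
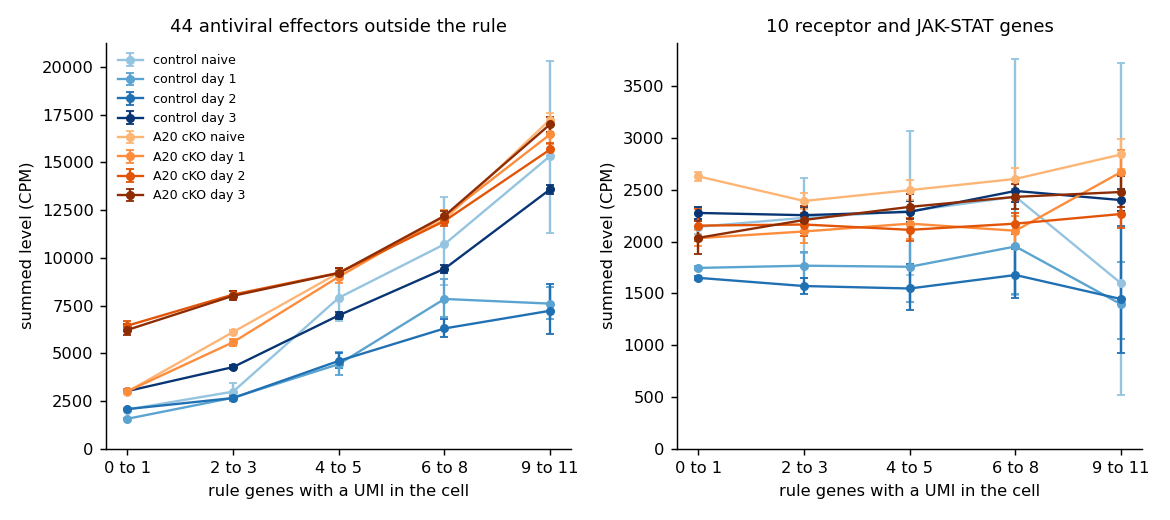
Summed level (vertical axis, CPM) of 44 antiviral effectors outside the rule (left) and of 10 receptor and JAK-STAT genes (right) in cells grouped by how many of the 11 rule genes had a UMI (horizontal axis), with 1 line per library and 95% Poisson bars; the highest bin of control naive is 1 cell. The left lines climb, for control day 3 from 3022 to 13584 CPM, and the right lines stay between 1395 and 2842 CPM.

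Related families followed. All 5 tested IFI200 genes were called higher, with Ifi204 at 2.55 log2 and Aim2, the inflammasome DNA sensor, at 0.29 (edgeR adjusted p 0.0379, and 0.0599 between 3000 and 6000 UMIs). All 3 tested Schlafen genes outside the rule were called higher, Slfn9 by 2.60, Slfn8 by 1.37 and Slfn2 by 1.28 log2. Among the interferon-induced GTPases 12 of 12 tested genes were called higher, from Gbp7 (0.95 log2) to Iigp1 (4.19 log2).

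Antigen presentation differed by class. For MHC class I, 19 of 20 tested genes were called higher, with a median of 0.67 log2, led by Nlrc5, the transactivator of these genes (1.84), H2-T22 (1.53) and H2-Q6 (1.43). Among the most abundant of them, B2m differed by 0.42 log2 over the libraries together (edgeR adjusted p 0.0255). H2-D1 differed by 0.42 log2 and was not called (adjusted p 0.0738). The libraries were unlike in this list. The 20 genes summed to 22953 CPM in members and 10207.5 CPM in comparison cells of A20 cKO naive, and to 8588 and 6703 CPM in control day 3. In A20 cKO day 3 they summed to 23883 and 23522 CPM. H2-D1 was called higher in both depth repeats, by 0.44 and 0.55 log2 (edgeR adjusted p 0.0117 and 0.0112), so that all 20 were called between 3000 and 6000 UMIs, and 18 on thinned counts. Of 4 tested MHC class II genes, Cd74 (0.55 log2) and H2-Ab1 (0.45 log2) were called higher, and H2-DMa and H2-DMb1 were not called. H2-Ab1 was not called in either depth repeat (edgeR adjusted p 0.196 and 0.58) or by DESeq2 (0.121).

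All 10 tested chemokine genes were called higher in members. Ccl12, Ccl2 and Ccl7, ligands of the monocyte receptor Ccr2, were 1.92, 2.32 and 2.66 log2 higher, Ccl4 and Ccl3 2.32 and 1.38, Cxcl13, which draws B cells, 2.27, and Cxcl16 0.93. Ccl5 was 1.42 log2 higher (edgeR adjusted p 0.00305, SD 1.64, higher in 6 of 7 libraries). Its members had 72.3, 30.8 and 63.7 CPM in control days 1, 2 and 3 and 2492, 3828, 2681 and 2575 CPM in A20 cKO naive and days 1, 2 and 3, while comparison cells of A20 cKO day 2 and day 3 had 2846 and 2549 CPM, so the classes hardly differed there.

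Against 8.15% and 7% of all genes tested outside the rule, 11 of 21 tested NF-kB target genes were called higher and 1 lower. Besides Il12b these included Cd40, a costimulatory receptor (3.51 log2), the cytokine Tnf (1.25), the NF-kB subunits Nfkb2 (0.89) and Relb (0.64) and the adhesion molecule Icam1 (0.62). Nfkbia, Nfkb1 and Rel were not called, with log2 differences of 0.02 to 0.24, and Il6 fell by 0.93 log2, with medians of 8.79 and 13.3 CPM. In the depth repeats no gene of this list was called lower. Between 3000 and 6000 UMIs 7 of 18 were called higher, where Relb was no longer called (edgeR adjusted p 0.16) and Nfkbia was (0.0399).

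**Figure D4:**
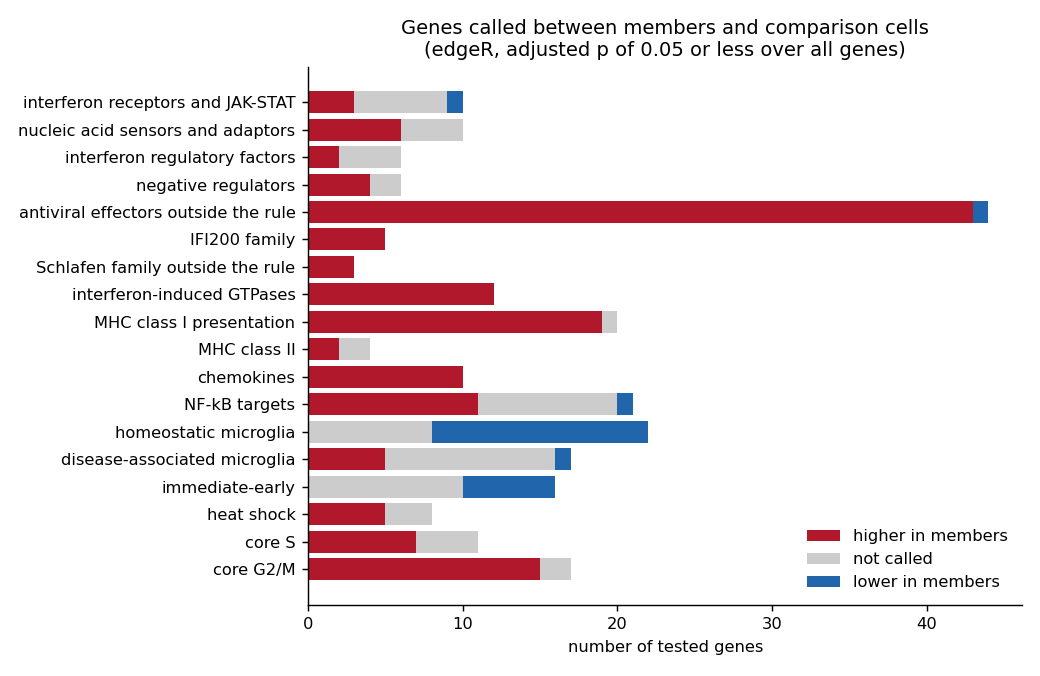
Number of tested genes (horizontal axis) of each gene list (vertical axis) that edgeR called higher in members (red), called lower (blue) or did not call (grey). Antiviral effectors stand at 43 of 44 higher, and homeostatic microglia genes at 14 of 22 lower and none higher. Of all 9608 genes tested outside the rule 8.15% were called higher and 7% lower.

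Homeostatic microglia genes were lower or not called. Of 22 tested, 14 were called lower and none higher, with a median of -0.28 log2. P2ry12, the ADP receptor that guides processes to injury, fell by 0.67 log2 (edgeR adjusted p 0.000296), at 2265, 1939 and 1682 CPM in members of control days 1, 2 and 3 against 2691, 2492 and 2678 CPM in comparison cells, and at 755 to 1322 CPM in A20 cKO members against 939 to 3685 CPM. Cst3 fell by 0.46 log2, Ecscr by 0.87, Fcrls by 0.71 and Slc2a5 by 0.72. Tmem119, Csf1r, Sall1 and Sparc were among the 8 not called, and between 3000 and 6000 UMIs 7 of 22 were called lower. Disease-associated microglia genes showed no common direction, with 5 of 17 called higher (Axl, Csf1, Cst7, Itgax and Ch25h), Ank lower, and Apoe, Ctsd and Tyrobp among the 11 not called. In the depth repeats no gene of the disease-associated list was called lower. Over all genes tested outside the rule 8.15% were called higher and 7% lower.

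Of 16 tested immediate-early genes none was called higher and 6 were called lower, among them Dusp1 (fell by 0.68 log2), Jund (0.47) and Jun (0.36). Their levels were set by library more than by class, with 25410 CPM summed in members and 28674 CPM in comparison cells of control day 1 and 1325 to 7457 CPM in both classes of all other libraries. Of 8 tested heat shock genes 5 were called higher, by 0.23 to 0.51 log2, and 3 of 8 in each depth repeat. Over all genes tested outside the rule 8.15% were called higher and 7% lower. In the depth repeats these shares were 5.08% and 2.83% between 3000 and 6000 UMIs and 7.47% and 3.76% on thinned counts.

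The cell cycle was compared because microglia divide after nerve injury. On cells thinned to 2000 UMIs after the classes were set, a mitotic cell needed UMIs in at least 3 of 18 core G2/M genes and a replicating cell in at least 3 of 12 core S genes. Mitotic cells made up 13.2% of members and 4.98% of comparison cells in control day 3, 7.26% and 0.712% in A20 cKO naive, 5.06% and 1.46% on A20 cKO day 1, 15.6% and 7.87% on day 2, and 10.4% and 4.11% on day 3. In control day 1 and day 2 they were 4.35% and 16.3% of members against 0.0965% and 13.4% of comparison cells. The share was higher in members of all 7 libraries, by 5.64 percentage points on average (SD 2.08), with p = 0.0156 (adjusted 0.0312) in an exact two-sided sign-flip test over libraries, which is the smallest p that 7 libraries can give. In control day 1 the sign rests on 1 mitotic cell among 23 members, against 3 among 3108 comparison cells, and the intervals of the differences in control day 2 and A20 cKO day 2 and day 3 include 0. Without control day 1 the difference was 5.87 points in 6 libraries. Replicating cells differed by 1.31 points (SD 3.14, higher in 4 of 7 libraries, exact p = 0.297).

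The difference was smaller where depth was narrowed or evened in other ways, and the part of depth in it was not tested apart from these settings. Between 3000 and 6000 UMIs members were still deeper in every library, for example with medians of 4159 against 3538 UMIs in control day 3. Among cells between 3000 and 6000 UMIs the G2/M difference was 1.58 points (SD 2.97, higher in 4 of 7 libraries, exact p = 0.281), and when the classes were also chosen on thinned counts it was 2.60 points (higher in 5 of 5 libraries, exact p = 0.0625, the smallest possible with 5). Of 17 tested core G2/M genes 15 were called higher by edgeR, Mki67 by 1.38 log2 and Top2a by 1.03, but between 3000 and 6000 UMIs only 3 of 13, namely Mki67, Birc5 and Ccnb2. Of 11 core S genes 7 were called higher, and 0 in either depth repeat.

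To ask whether the difference between members and comparison cells was another in A20 cKO, the interaction of class and genotype was tested in the same edgeR fit. It called 0 of 9608 genes (0%), and 330 had an unadjusted p under 0.05. The 3 control libraries in it hold 23, 43 and 605 members, so the fit leans on control day 3, and a missing call does not show that the genotypes act alike.

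The level within members did differ between libraries, which is given as values since each group is 1 library. On day 3, where both libraries are linked, members of A20 cKO had 2157 CPM of H2-K1 against 416 CPM in control, a log2 ratio of 2.37 (exact conditional 95% interval 2.28 to 2.47). B2m was 1.44 log2 higher (1.41 to 1.48), Ccl5 5.34 (5.11 to 5.57), Oas1g 2.76 (2.18 to 3.38), Pydc4 2.01 (1.77 to 2.25), Irf7 0.83 (0.70 to 0.95) and Cxcl10 0.66 (0.53 to 0.79). Other genes outside the rule that were higher in members than in comparison cells were lower in A20 cKO members. Among them were Gbp7 at -1.37 log2 (-1.63 to -1.11), Cmpk2 at -0.95 (-1.41 to -0.50), Ccl12 at -0.69 (-0.74 to -0.64) and Ifi204 at -0.22 (-0.31 to -0.13). The direction was thus mixed outside the rule as well. Of the 11 rule genes 8 were lower in A20 cKO members, among them Rsad2 at -0.86, Ifit2 at -0.47, Ifit3 at -0.43 and Isg15 at -0.25 log2. Usp18 stood at 0.36, Oasl2 at 0.18 and Zbp1 at 0.08 (-0.09 to 0.25). Since these genes chose the members, their levels within members depend on the rule. Day 3 members also differed in depth, with medians of 4802.5 UMIs in A20 cKO and 4045 in control. Over all kept cells of day 3 the rule genes were higher in A20 cKO, at 2608 CPM together against 1828 CPM in control. In members P2ry12 and Cst3 stood at -1.06 and -1.02. Comparison cells differed in H2-K1 as well, with 2244 CPM in A20 cKO and 347 CPM in control on day 3. Their log2 ratios of A20 cKO to control were 8.75 for Ccl5, 2.84 for Pydc4, 2.28 for Irf7, 2.26 for Cxcl10 and 1.65 for B2m. Those of P2ry12 and Cst3 were -1.51 and -1.57, so these differences were not particular to members.

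**Figure D5:**
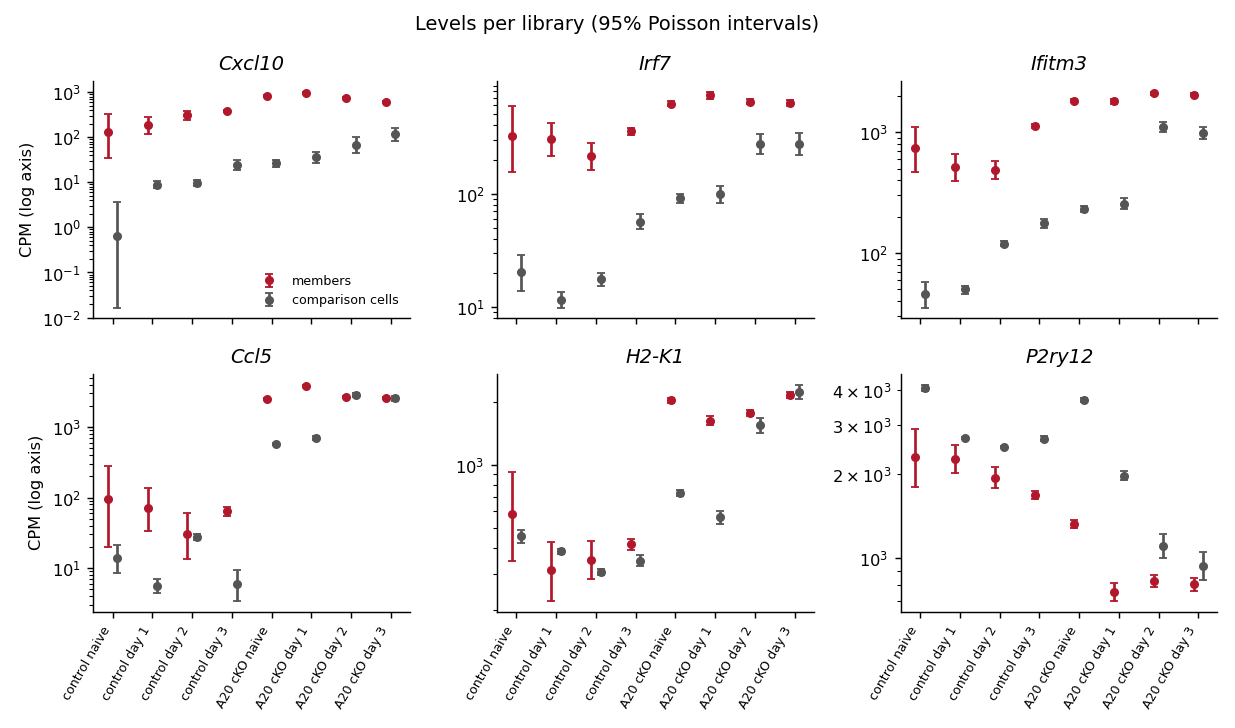
Levels (vertical axes, CPM on log axes) of 6 genes in members (red) and comparison cells (grey) of each library (horizontal axis), with 95% Poisson intervals that cover counting error only. Cxcl10, Irf7 and Ifitm3 are higher in members of every library, Ccl5 and H2-K1 lie highest in the A20 cKO libraries, and P2ry12 is lower in members of every library.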

How the data were processed

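For 8 libraries the deposited files hold UMI counts of each gene in barcodes that had been called as cells, which the authors had not normalized. The submitters' processing notes name Cell Ranger 2.1.1 and the build mm10. Labels and methods name different versions of the kit. The sort selected cells by size and excluded doublets, no doublet caller was run here, and leaving out cells over 3 times their library's median UMIs gave 770 genes called higher and 635 lower.

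Cells were filtered, thinned and summed in Python 3.11.15 (numpy 2.4.6, pandas 2.3.3, scipy 1.17.1). Sums of members and comparison cells were fitted with edgeR 4.0.16 in R 4.3.3 (filterByExpr, TMM, glmQLFit, glmQLFTest, library as a block), with Benjamini-Hochberg adjustment over all genes, and with DESeq2 1.42.0 as an alternative. The scripts were tested on simulated data. CPM are UMIs of a gene per 1000000 UMIs of the sum. Intervals are at 95% and cover counting error only. P-values rest on how the difference between members and comparison cells within a library varied over these libraries. The libraries differ in genotype and day and are not replicates.

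The members, gene lists and tests were chosen with earlier results of these data known. Genes named are the rule genes, Tnfaip3, the 15 largest positive and 10 largest negative differences among called genes with at least 20 CPM and the same sign in every library (without predicted, ribosomal protein, mitochondrial and sex-chromosome marker genes), and the most abundant genes of each list; other list genes were named after their values were seen. Results for a few genes are not reported here.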

Additional observations from a re-analysis of the deposited data

How the results depend on the processing

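Requiring 5 rule genes gave member shares of 0.528% in control naive, 0.753% in control day 2, 22.4% in control day 3 and 16.2%, 21.6%, 43.2% and 50.7% in A20 cKO naive and days 1, 2 and 3. Thinning gave 0.431%, 20.1%, 14.4%, 18.7%, 30.2% and 34.8% in control day 2, control day 3 and the A20 cKO libraries in order. Differences of shares became 19.1 (thinned) and 21.9 (5 genes) points for control day 3 minus naive, 13.4 and 15.7 for A20 cKO naive minus control naive, 15.8 and 27.0 for A20 cKO day 2 minus naive, 20.3 and 34.5 for day 3 minus naive, and 14.6 thinned for A20 cKO minus control on day 3. With 5 rule genes the differences of control day 1 and day 2 from naive turned from -0.716 and -0.209 to 0.0135 and 0.225 points, with intervals that include 0 in each case; no other difference of shares changed direction. A stricter mitochondrial limit, leaving Ifit3b out and leaving out shared barcodes moved no share beyond its interval.

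Genes called higher and lower were 424 and 236 between 3000 and 6000 UMIs, 521 and 262 on thinned counts and 206 and 55 without the library block, and DESeq2 called 321 lower; leaving out each library gave 508 to 904 higher (fewest without A20 cKO naive) and 250 to 685 lower (250 without A20 cKO naive, 300 without control day 3). The interaction called 0 to 3 genes higher and 0 to 1 lower when each library was left out. Of the 25 genes named for size, none reversed, and 9 of 445 alternative values lost the call: Pydc4, Ifi27, Gpr34, Klf4, Abcc3, Abca9 and Snx29 without the library block and Abcc3 in both depth repeats. The G2/M difference was 1.58 points and not called between 3000 and 6000 UMIs. It was 2.60 points with classes chosen on thinned counts, where 5 libraries cannot pass; both settings were added after seeing the data. With 5 rule genes it was 7.12 points, and leaving out each library gave 5.21 to 6.10 points. In these last settings it was higher in 6 of 6 libraries, at the smallest exact p that 6 libraries allow (0.0312, adjusted 0.0625), so the missing call says nothing about stability. The S difference was 10.3 points without thinning, with exact p = 0.0156, and reversed to -0.54 between 3000 and 6000 UMIs. The causes were not tested. Small numbers of members (8, 23 and 43) limit the values of control naive, day 1 and day 2.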

Other observations

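Some interferon-stimulated genes stayed under the filter on low counts, so that they were not tested, and are given as UMIs in all members and all comparison cells. Ifi205 of the IFI200 family had 480 and 9 UMIs, Slfn1 257 and 13, the chemokine Cxcl9 232 and 42, Mndal 91 and 10, and the GTPase Tgtp1 73 and 5. In the MHC class II list H2-Aa had 43 and 117 UMIs, and its transactivator Ciita 6 and 0. Among heat shock genes Hspa1a had 80 and 2171, while the heat shock list summed higher in members within each library (5999 against 4678 CPM in control day 1). Members held 10136722 UMIs in all and comparison cells 39287301. Most UMIs of members came from the linked libraries and most of comparison cells from control day 1 and day 2. Totals over all libraries, here and below, therefore mix library with class.

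Cnp, listed here as an oligodendrocyte marker, was 0.75 log2 higher in members (edgeR adjusted p 1.01e-05, higher in 7 of 7 libraries), while Mbp and Mag of the same list differed by 0.10 and 0.08 log2 and were not called. Plac8 of the monocyte list was 2.61 log2 higher (edgeR adjusted p 2.55e-09, 7 of 7 libraries), and no other gene of that list was tested. In UMIs of all members and all comparison cells, Itgal had 92 and 43, Fn1 67 and 65 and Vcan 23 and 11. Ccr2 had 21 and 39, Chil3 9 and 11 and Ly6c2 2 and 11. These counts are not levels, since members held 10136722 UMIs in all and comparison cells 39287301.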
